A study of Drosophila melanogaster with 18 samples.

Results

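Among the GAF peaks that persisted through mitosis, those without any called H4K8ac were examined on their own. They numbered 837 of the 4970 interphase GAF peaks. A peak was chosen when it overlapped a mitotic GAF peak by at least 1 bp and overlapped no peak of the interphase or of the mitotic H4K8ac list. The called positions in these 4 lists chose the peaks, so their mitotic binding and their lack of H4K8ac are not findings. In the H4K8ac lists stretches less than 2000 bp apart had been joined, so a GAF peak in a gap of that size counts as overlapping H4K8ac. In all, 1552 interphase peaks were retained in this sense, fewer than the 2362 of the authors' own list of retained peaks. The peaks without H4K8ac made up 53.9% of the 1552, a share that the rule itself set. Of the other retained peaks, 493 overlapped H4K8ac in both stages, 145 in mitosis only and 77 in interphase only. A further 2696 interphase-only GAF peaks overlapped neither a mitotic GAF peak nor H4K8ac. The retained peaks with H4K8ac in both stages and the interphase-only peaks without H4K8ac serve as the comparison below.

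The chromatin came from whole wild-type yw embryos of Drosophila melanogaster, collected 1 to 2.5 h after egg laying according to the labels (the study's methods give a later start within this span), with 1000 embryos in each sample and no treatment. Embryos were stained for histone H3 phosphorylated on serine 10 (H3S10ph), a mark of condensed mitotic chromosomes, and sorted into interphase and mitotic embryos. ChIP-seq of GAF was made in 3 interphase and 2 mitotic samples and ChIP-seq of H4K8ac in 2 samples of each stage, with an input sample for each, 18 samples in all. The deposited lists held positions called on the mean of the replicates, with no score, read number or value per replicate, so the depth behind a peak and the spread between replicates are unknown. Peaks of 1 list are not replicates, and no test between classes was run. Shares are given with 95% Wilson intervals, which cover counting error over peaks only. Every embryo was a mix of cell types, so a peak bound in few cells cannot be told apart from one bound weakly in many.

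GAF, the GAGA factor encoded by Trl, is a zinc-finger protein that binds GAGAG and longer GA repeats. It is known for opening chromatin at promoters with paused RNA polymerase, among them those of the Hox and heat shock genes, and for staying on mitotic chromosomes. H4K8ac, the acetylation of histone H4 on lysine 8, is laid down by acetyltransferases and is usually found at active promoters and enhancers. In the early embryo the nuclei divide rapidly while transcription of the zygotic genome begins.

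The sequences behind these peaks took several forms, and 10 central parts are shown because they carry the motif content described below. All are plus-strand sequences of dm6 with every GAGAG, or CTCTC for the other strand, in capitals. The first 5 lie at promoters: of oc on chromosome X from 8650801 to 8651000, of pnr on 3R from 16025826 to 16026025, of the Hox genes Dfd on 3R from 6791626 to 6791825 and Abd-B on 3R from 16934501 to 16934700, and of the heat shock gene Hsp70Bbb on 3R from 12502226 to 12502425. The next 3 have no promoter: an intron of Mnt on X from 3677551 to 3677750, an intergenic tandem array on 2L from 23513151 to 23513250, and a part from 12090526 to 12090625 of X, in an intron of Ten-a, that holds the longest GA run. The last pair holds no motif and comes from repeats, in an intron of CARPB on X from 9809301 to 9809400 and between genes on 3L from 27075051 to 27075150.
oc promoter: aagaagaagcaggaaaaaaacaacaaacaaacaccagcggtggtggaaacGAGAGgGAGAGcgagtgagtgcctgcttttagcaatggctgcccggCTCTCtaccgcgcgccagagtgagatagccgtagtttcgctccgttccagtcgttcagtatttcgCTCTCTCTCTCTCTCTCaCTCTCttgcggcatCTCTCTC
pnr promoter: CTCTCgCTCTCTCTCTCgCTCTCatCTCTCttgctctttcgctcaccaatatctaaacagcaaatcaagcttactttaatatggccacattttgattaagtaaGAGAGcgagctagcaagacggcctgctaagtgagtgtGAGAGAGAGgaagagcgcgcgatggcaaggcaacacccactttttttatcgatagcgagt
Dfd promoter: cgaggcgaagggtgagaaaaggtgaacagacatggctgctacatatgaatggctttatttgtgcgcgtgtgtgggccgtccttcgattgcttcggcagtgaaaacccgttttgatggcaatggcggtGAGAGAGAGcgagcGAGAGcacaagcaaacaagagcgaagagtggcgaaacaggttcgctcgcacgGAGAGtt
Abd-B promoter: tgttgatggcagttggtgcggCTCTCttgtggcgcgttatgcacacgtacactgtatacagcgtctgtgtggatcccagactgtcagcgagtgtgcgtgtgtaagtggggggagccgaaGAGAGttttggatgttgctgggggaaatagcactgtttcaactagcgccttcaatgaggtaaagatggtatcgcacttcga
Hsp70Bbb promoter: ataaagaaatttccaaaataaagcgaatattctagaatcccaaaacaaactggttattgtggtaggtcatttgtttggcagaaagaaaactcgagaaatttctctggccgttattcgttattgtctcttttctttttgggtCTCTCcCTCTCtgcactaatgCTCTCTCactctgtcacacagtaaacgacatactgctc
Mnt intron: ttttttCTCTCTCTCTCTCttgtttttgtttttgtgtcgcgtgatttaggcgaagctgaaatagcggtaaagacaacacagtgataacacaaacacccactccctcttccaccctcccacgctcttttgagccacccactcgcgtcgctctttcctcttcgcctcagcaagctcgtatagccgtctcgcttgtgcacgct
Array on 2L: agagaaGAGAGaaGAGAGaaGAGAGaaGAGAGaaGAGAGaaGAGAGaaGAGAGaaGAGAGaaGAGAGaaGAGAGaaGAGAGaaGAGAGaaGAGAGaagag
Ten-a intron: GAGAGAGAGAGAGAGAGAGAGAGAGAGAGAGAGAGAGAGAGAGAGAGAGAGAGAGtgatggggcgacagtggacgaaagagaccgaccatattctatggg
CARPB repeat: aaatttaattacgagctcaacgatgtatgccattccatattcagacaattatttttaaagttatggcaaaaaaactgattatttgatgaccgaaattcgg
Repeat on 3L: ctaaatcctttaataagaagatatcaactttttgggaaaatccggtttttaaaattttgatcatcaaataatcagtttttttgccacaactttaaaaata

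Within these 200 bases the oc promoter held 8 motifs and a GA run of 17 bases, and the pnr promoter held 7 motifs. The Dfd and Abd-B promoters held 3 and 2 motifs, none in a run of over 9 bases. The Hsp70Bbb promoter held 3, all as CTCTC on the plus strand. The array on 2L repeated GAGAG with the spacer aa between, 13 times in 100 bases, and its longest strict GA run was 7 bases. The Ten-a intron was the opposite case, a GA run of 55 bases within the 100 shown. The Dfd and Ten-a sequences were all or mostly inside the mitotic peak (200 and 75 bases), whereas the array on 2L had none of these 100 bases in it.

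Nearly all peaks without H4K8ac held the motif. GAGAG, counted on both strands without overlap, was present in 803 of the 837 peaks, or 95.9% (94.4% to 97.1%), beside 96.7% of all interphase GAF peaks. Since 37.9% of all 400-bp windows of the genome held a GAGAG, against 93.9% of the 400-bp centres of these peaks, the peaks bore the known motif of the factor named in the labels. The number of motifs per peak was 6.32 ± 6.07 (SD over 837 peaks), with a median of 5 and a highest count of 124. In 301 peaks it was from 6 to 9, in 251 it was 4 or 5, and in 114 it was 10 or more. The retained peaks with H4K8ac in both stages had 6.39 ± 3.97 (SD, 493 peaks) and the interphase-only peaks without H4K8ac 3.59 ± 3.32 (SD, 2696 peaks).

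**Figure D1:**
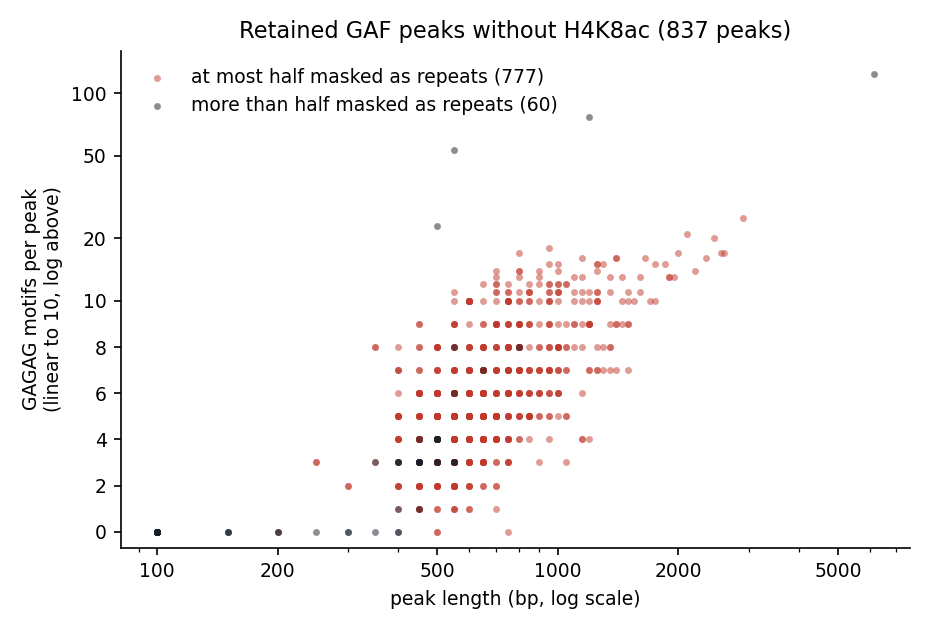
Each point is 1 of the 837 retained GAF peaks without H4K8ac, with its length in bp (log scale) on the x axis and its number of GAGAG motifs on the y axis (linear to 10, log above). Of the 60 black points, more than 50% masked as repeats, 28 have no motif and 32 have motifs. The black points with motifs include the highest counts, and others of them lie among the red points. The 777 red points follow a rise of motif number with length.

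Motif number followed peak length, which differed between the classes. The peaks without H4K8ac had a median length of 650 bp (25% to 75% range 500 to 800), against 800 bp with H4K8ac in both stages and 300 bp for the interphase-only peaks. Length is set by the same signal threshold that decides whether a peak is called, so it was held apart by comparing peaks of like length. At 450 to 600 bp the 342 peaks without H4K8ac had 4.91 ± 3.47 motifs (SD), against 3.90 ± 1.62 in the 121 peaks with it and 4.56 ± 2.13 in the 418 interphase-only peaks. At 650 to 800 bp the values were 6.41 ± 2.52 (247 peaks), 5.19 ± 1.78 (135 peaks) and 6.34 ± 2.70 (70 peaks). At 850 bp and over they were 10.4 ± 10.5 (182 peaks), 9.0 ± 4.33 (217 peaks) and 14.7 ± 16.4 (52 peaks). The means without H4K8ac were thus above those with it in each of these length groups, by less than the SD over peaks. In the 400 bp at the centre of each peak the same classes held 4.65 ± 3.17, 3.64 ± 2.14 and 3.47 ± 1.78 motifs.

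Long GA runs were more frequent in these peaks than in those with H4K8ac in both stages. A strict alternation of G and A, or of C and T, over at least 20 bases occurred in 108 of the 837 peaks, or 12.9% (10.8% to 15.3%). It occurred in 19 of the 493 peaks with H4K8ac in both stages, or 3.85% (2.48% to 5.94%), and in 7.05% (6.14% to 8.08%) of the interphase-only peaks. The retained peaks with H4K8ac in mitosis only had 26 of 145, or 17.9% (12.5% to 25%), an interval that overlapped that of the peaks without H4K8ac. At 450 to 600 bp the share was 13.7% without H4K8ac and 3.31% with it, at 650 to 800 bp 12.6% and 2.96%, and at 850 bp and over 11.5% and 5.07%. The 10-base motif GAGAGAGAGA, which contains GAGAG, was searched on both strands. It was found in the central 400 bp of 332 peaks without H4K8ac, or 39.7% (36.4% to 43.0%), beside 26.8% of all interphase peaks, 25.4% of the peaks with H4K8ac in both stages and 0.931% of all 400-bp windows of the genome. Away from promoters its share was 46.2% without H4K8ac (431 peaks) and 27.7% with it (166 peaks), and at promoters 32.8% (406 peaks) and 24.2% (327 peaks).

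**Figure D2:**
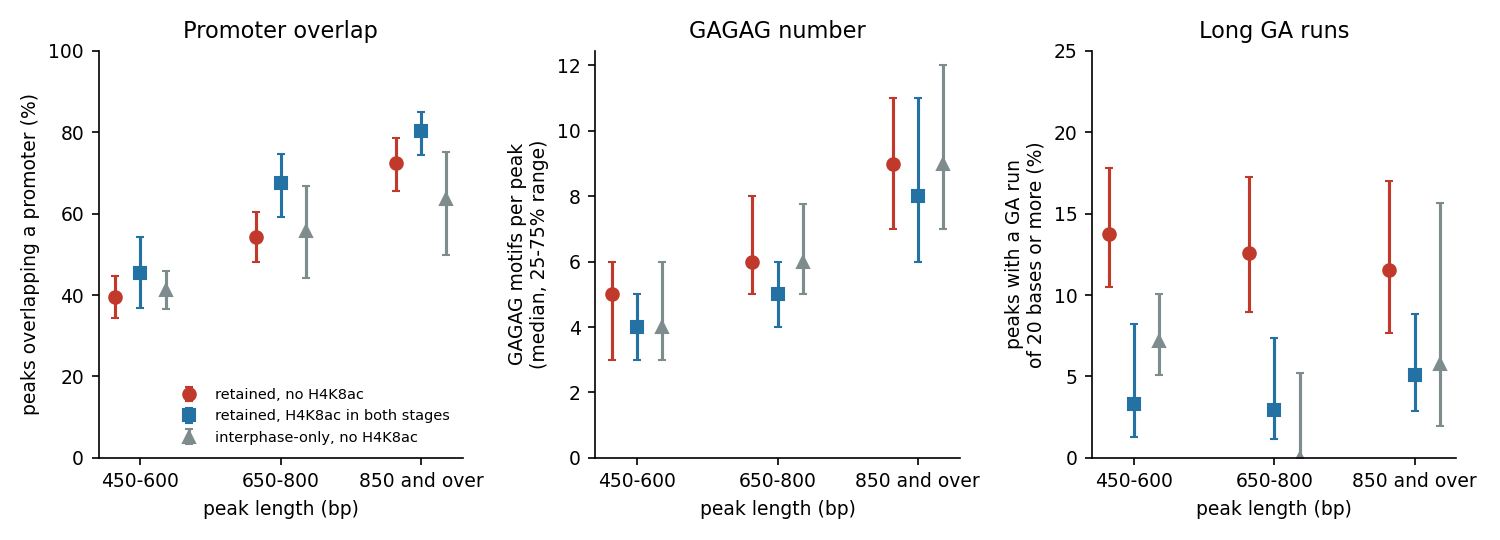
Peaks of 450 bp and over are grouped by length in bp (x axes), with the share overlapping a promoter, the number of GAGAG motifs per peak and the share with a GA run of at least 20 bases on the y axes. Shorter peaks are not drawn. Circles are retained peaks without H4K8ac, squares retained peaks with H4K8ac in both stages and triangles interphase-only peaks without H4K8ac. Bars are 95% Wilson intervals for the shares and the 25% to 75% range for the motif number. Long GA runs were in 11.5% to 13.7% of the peaks without H4K8ac and in 2.96% to 5.07% of those with it.

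Motifs of other early embryonic factors were searched in the same way. CAGGTAG, the site of the maternal activator Zelda, was in the central window of 22 peaks, or 2.63% (1.74% to 3.95%), against 4.87% (3.29% to 7.14%) with H4K8ac in both stages, 2.80% of all interphase peaks and 2.18% of all genome windows. GCCAT, the core bound by the Polycomb recruiter Pho, was in 48.7% (45.4% to 52.1%) of the peaks without H4K8ac, near the 50.4% of all interphase GAF peaks, and in 44.2% of those with H4K8ac in both stages and 57.5% of all genome windows. TATCGATA, bound by DREF, a factor of housekeeping promoters, was in 4 peaks, or 0.478%, near the 0.684% of all interphase GAF peaks, and in 6.51% of the 400-bp windows centred on a transcription start site (TSS). A match is a stretch of letters and not a bound site, and these motifs do not contain GAGAG, although their ends can share a base with it.

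Within a peak the motifs lay where mitotic binding was called. Mitotic peaks covered 42.3% of the bases of the 837 peaks and held 4185 of their 5290 motifs, or 79.1%. The density was 16.7 motifs per kb inside the mitotic part and 3.25 per kb in the rest. A central part of the same length held 71.0%, and the centres of the mitotic and interphase peaks were a median of 25 bp apart in the 791 peaks with 1 mitotic peak. A pair of mitotic peaks was found in 44 peaks and more than 2 in 2 peaks. In only 3 peaks did every motif lie outside the mitotic part. The retained peaks with H4K8ac in both stages had 77.6% of their motifs inside, at 11.7 per kb, against 2.79 per kb outside. Around the interphase centre the density of the peaks without H4K8ac reached 25.2 motifs per kb, and that of the peaks with H4K8ac 16.8 per kb. It reached 23.8 per kb in the interphase-only peaks without H4K8ac and 21.8 per kb in all interphase peaks. A high central density was thus not particular to the retained peaks without H4K8ac.

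**Figure D3:**
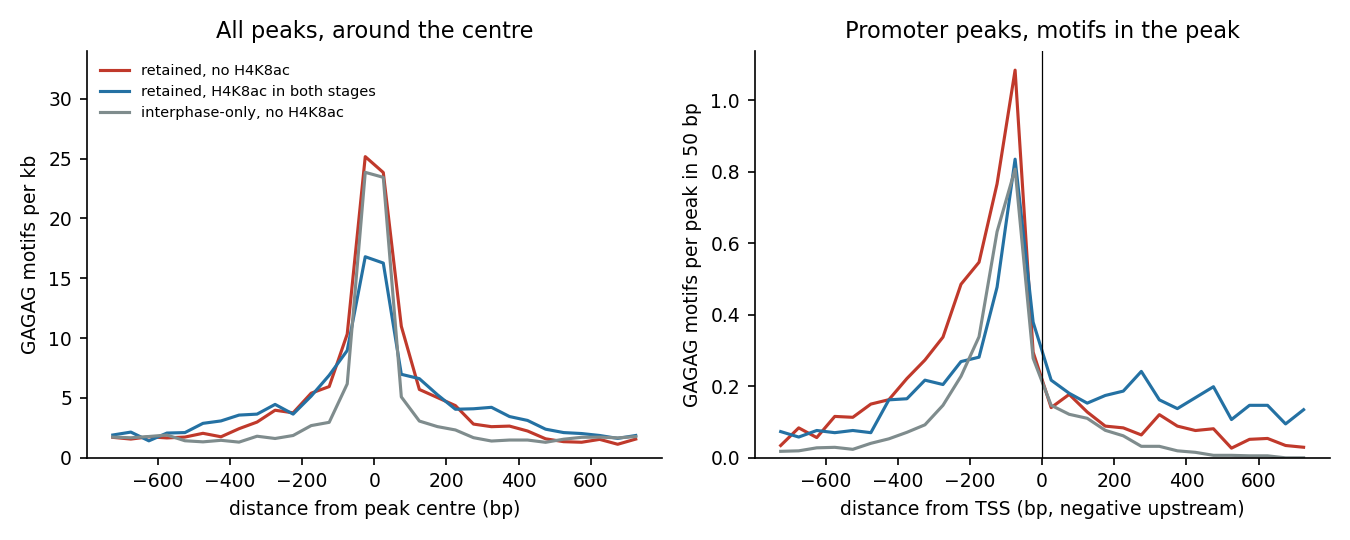
The left panel plots GAGAG motifs per kb in bins of 50 bp against the distance from the peak centre in bp, and the right panel motifs per promoter peak in 50 bp against the distance from the TSS in bp, negative upstream. Lines are retained peaks without H4K8ac (red), retained peaks with H4K8ac in both stages (blue) and interphase-only peaks without H4K8ac (grey). The red line peaks at 25.2 motifs per kb at the centre and at 1.08 motifs per peak just upstream of the TSS, where the blue line peaks at 16.8 and 0.835. The grey line peaks at 23.8 and 0.807.

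About as many of the peaks lay at promoters as away from them. A promoter, taken as 100 bp to each side of an annotated TSS, was overlapped by 406 of the 837 peaks, or 48.5% (45.1% to 51.9%), beside 37.7% of all interphase GAF peaks. The share was 66.3% (62.0% to 70.4%) in the retained peaks with H4K8ac in both stages and 26.5% (24.9% to 28.2%) in the interphase-only peaks. Longer peaks overlapped a promoter more often in each class, so peaks of like length were compared again. At 450 to 600 bp 39.5% (34.4% to 44.7%) of the peaks without H4K8ac overlapped a promoter, against 45.5% (36.9% to 54.3%) with it and 41.1% (36.5% to 45.9%) of the interphase-only peaks. At 650 to 800 bp the shares were 54.3% (48.0% to 60.4%), 67.4% (59.1% to 74.7%) and 55.7% (44.1% to 66.8%). At 850 bp and over they were 72.5%, 80.2% and 63.5%, and the intervals of all classes overlapped at each of these lengths. The share without H4K8ac was below that with it by 5.98 to 13.2 percentage points at these lengths. Shorter peaks with H4K8ac were few, and there the gaps were wider. At 100 to 250 bp the shares were 0% of 28 peaks without H4K8ac and 22.2% of 9 with it. At 300 to 400 bp they were 13.2% of 38 peaks and 45.5% of 11.

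The median distance from the centre of a peak to the nearest TSS was 572 bp (25% to 75% range 175 to 3024). It was 308 bp with H4K8ac in both stages and 1636 bp in the interphase-only peaks. Of the peaks without H4K8ac 186 lay more than 2000 and up to 10000 bp away and 76 beyond that, or 22.2% and 9.08%. The shares were 10.1% and 3.25% with H4K8ac in both stages and 20.9% and 14.1% of all interphase peaks. By annotation 398 centres were intronic, 255 intergenic, 111 within 100 bp of a TSS and 73 exonic. Exonic centres made up 8.72% (6.99% to 10.8%) without H4K8ac and 21.7% (18.3% to 25.6%) with it, and intergenic centres 30.5% and 15.2%. The interphase-only peaks were near the peaks without H4K8ac, with 9.53% and 32.8%, and all interphase peaks had 12.6% and 27.2%.

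**Figure D4:**
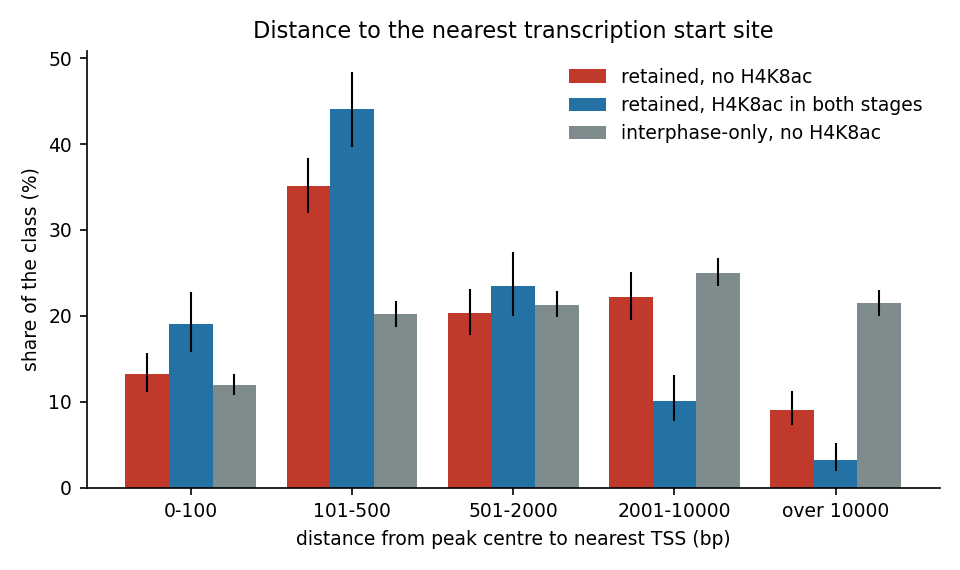
Bars give the share of each class in % by distance from the peak centre to the nearest TSS in bp, with 95% Wilson intervals as black lines. At over 2000 bp the retained peaks without H4K8ac (red) stand at 22.2% and 9.08%, between those with H4K8ac in both stages (blue, 10.1% and 3.25%) and the interphase-only peaks without H4K8ac (grey, 25% and 21.5%).

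The peaks without H4K8ac leaned to the upstream side of the TSS. The centre was upstream of the nearest TSS in 555 peaks, or 66.3%, against 50.3% with H4K8ac in both stages and 56.5% of the interphase-only peaks. In the 406 promoter peaks 2036 of 2603 motifs, or 78.2%, lay upstream of the TSS, with the highest number in the bin from 100 to 50 bp before it. The promoter peaks with H4K8ac had 56.4% of their motifs upstream and those of the interphase-only class 81.2%. On the strand of the gene 52.1% of the motifs read GAGAG and the rest CTCTC. The 406 promoter peaks covered the TSS of 420 genes, 379 of them protein-coding, and 18 of the peaks (4.43%) covered start sites on both strands, against 14.4% with H4K8ac in both stages, 3.50% of the interphase-only peaks and 7.32% of all interphase promoter peaks.

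By chromosome the peaks leaned to X. Of the 837 peaks 234 were on X, or 28.0%, beside 20.5% of all interphase peaks and 19.3% of the retained peaks with H4K8ac in both stages. Peaks without H4K8ac made up 63.4% (58.4% to 68.2%) of the retained peaks on X, 58.2% on 3L, 51.1% on 3R, 49.0% on 2L and 45.5% (39.9% to 51.1%) on 2R. The X peaks overlapped a promoter in 37.6% (31.6% to 44.0%) and the others in 52.7% (48.7% to 56.7%), while the 95 X peaks with H4K8ac did so in 64.2%. A GA run of at least 20 bases was in 16.7% of the X peaks and 11.4% of the others without H4K8ac, and in 4.21% and 3.77% with it. Both leanings were also seen over all interphase peaks, of which 11.8% on X and 6.25% elsewhere had such a run, and 31.0% on X and 39.4% elsewhere overlapped a promoter.

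In all 829 genes had such a peak on them or within 1000 bp, which is 22.0% of the 3774 genes with any interphase GAF peak there, and 706 of them were protein-coding. A retained peak with H4K8ac in both stages was found at 18.5% of the 3774. Most of the 829 genes, 683, had 1 peak without H4K8ac. The lack of H4K8ac held for the peak and not for the whole gene: 572 of the 829 genes, or 69.0%, had an H4K8ac peak of either stage elsewhere on the gene or within 1000 bp, beside 75.4% of all 3774. No gene lay within 1000 bp of 87 of the peaks.

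The genes with the most peaks were long, from 22.5 to 224 kb, against a median of 5.39 kb for all genes with an interphase peak. Eip75B, which encodes the ecdysone-induced nuclear receptor E75, had 8 such peaks among its 21 interphase peaks, with 3 to 11 motifs each. Tlk, a kinase of chromatin assembly, had 8 of 9 with 4 to 9 motifs, and Mnt, a repressor that pairs with Max, had 7 of 16 with 4 to 21 motifs. Hr3, another ecdysone-responsive nuclear receptor, had 6, all of its interphase peaks, and CG12912 and CG46321 inside it shared 5 of these. The forkhead gene CHES-1-like, the growth regulator bun and lncRNA:CR32773 had 5 each. None of these genes but bun, with 4, had a retained peak with H4K8ac in both stages. Across the genome 276 of the 837 peaks lay within 10000 bp of another, in 116 groups. This was not counted for all interphase peaks or the other classes, so it cannot be called particular to these peaks. Some groups held no GAGAG, as the 4 peaks over 1.15 kb of 2R and the 5 over 7.15 kb of 3L. The largest group was the 7 peaks over 25.3 kb of Mnt.

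The Hox genes, which set segment identity along the body axis, stood at the top of the lists. All 6 Hox genes with an interphase GAF peak had a retained peak without H4K8ac and none had a retained peak with H4K8ac in both stages. Of 11 retained peaks at these genes 10 were without H4K8ac, or 90.9%, beside 52.2% of the 1438 retained peaks at all genes. The list is small and its genes are long, with a median of 35.9 kb and 4 interphase peaks against 5.39 kb and 1 for all genes, so the count at the TSS is given too. It was 5 of 6, against 23.0% of the 1830 genes with an interphase GAF peak at a TSS. The promoter peak of Dfd had 5 motifs, was 650 bp long with 350 bp bound in mitosis, and lay 9000 bp from the nearest H4K8ac peak. That of Scr had 4 motifs and lay 7650 bp from H4K8ac. That of Abd-B had 4 motifs, spanned 800 bp and lay 53050 bp from H4K8ac. Ubx had a promoter peak with 3 motifs at 750 bp from H4K8ac and 3 peaks with 5 to 7 motifs from 7700 to 18550 bp past its TSS, and abd-A a promoter peak with 3 motifs at 2300 bp from H4K8ac and another with 3 that touched an H4K8ac peak. The peak of Antp, with 4 motifs, was 8531 bp from its nearest annotated TSS and 650 bp from H4K8ac. Of these 6 genes 5 had an H4K8ac peak on them or within 1000 bp.

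Other genes of early patterning followed. Of the 53 patterning genes, which include the Hox genes, 42 had an interphase GAF peak, and of these 23, or 54.8% (39.9% to 68.8%), had a retained peak without H4K8ac and 3 had one with H4K8ac in both stages. At the TSS 19 of 40 genes had such a peak. Of the 45 retained peaks at the patterning genes 31 were without H4K8ac, or 68.9%, beside 52.2% at all genes. Among the gap and head gap genes, which mark broad regions of the embryo, 6 of 11 had such a peak. Of their 10 retained peaks 6 were without H4K8ac, or 60%, near the share at all genes. The peak of the nuclear receptor gene knrl had 13 motifs over 1950 bp, that of the head homeobox gene oc had 9 over 800 bp, and that of the zinc-finger gene btd had 8 over 800 bp, 600 bp of them bound in mitosis. Of 7 pair-rule genes with an interphase peak 2 had such a peak, or 28.6% (8.22% to 64.1%), near the 22.0% of all genes. These were the forkhead genes slp1 and slp2, with 1 and 3 motifs.

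In the segment polarity list, mostly genes that pattern each segment, the count was 6 of 9. The promoter peak of en, the homeobox gene of posterior compartments, had 14 motifs over 1000 bp and an H4K8ac peak at 100 bp. The T-box genes Doc2 and mid had 7 motifs each, and the GA run at Doc2 reached 20 bases. Doc2 was counted in this list although it is not a classic segment polarity gene. Of the dorsoventral and mesodermal genes 8 of 17 had such a peak. The GATA factor gene pnr and ush, whose product binds Pannier, had promoter peaks with 10 motifs each, and vnd, a homeobox gene of the neuroectoderm, had 7.

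Transcription factors of the nervous system and appendages, many of which act after the stage sampled, had the same share as the patterning genes, 23 of 42, or 54.8% (39.9% to 68.8%). At the TSS the count was 20 of 33. Of the 31 retained peaks at these genes 25 were without H4K8ac, or 80.6%, beside 52.2% of the 1438 retained peaks at all genes. The zinc-finger gene disco had a peak of 1400 bp with 16 motifs, 1100 bp of it bound in mitosis and 53100 bp from the nearest H4K8ac peak. The ladybird homeobox gene lbl had 14 motifs over 800 bp. The LIM homeobox gene Lim1 had 13 over 1350 bp, at 24400 bp from H4K8ac. Together the patterning and late lists held 46 of 84 genes with such a peak, and 56 of the 837 peaks, or 6.69%, lay at them.

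Signalling genes had a peak without H4K8ac in 11 of 21 and one with H4K8ac in both stages in 7 of 21. Of their 25 retained peaks 14 were without H4K8ac, or 56%, near the 52.2% at all genes. The ETS factor gene pnt, an effector of the EGF receptor, had 4 such peaks, the longest of 2550 bp with 17 motifs. The Wnt receptor gene fz and the JAK/STAT ligand gene upd1 had promoter peaks with 7 motifs each. Axon guidance and adhesion genes had such a peak in 12 of 27. The semaphorin gene Sema1a had 20 motifs over 2450 bp and 3 mitotic peaks, the leucine-rich repeat gene caps 9 motifs and the netrin gene NetB 8. Signalling and axon guidance genes are long, with medians of 22.3 and 49.9 kb and 2 interphase peaks, against 5.39 kb and 1 for all genes. At the TSS the counts were 9 of 18 and 8 of 21, beside 23.0% of all genes. Ion channel and synapse genes, with 6 of 25, were near the background of 22.0%, and the neuronal RNA-binding gene fne was the 1 with a promoter peak, which had 8 motifs. Of the Notch pathway and E(spl) genes it was 2 of 10, with the ligand gene Ser at 4 motifs at its promoter.

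Heat shock genes, among the classic targets of GAF, had such a peak in 5 of 15, or 33.3% (15.2% to 58.3%), all at the promoter. This interval includes the 22.0% of all genes. Of their 9 retained peaks 5 were without H4K8ac, or 55.6%, near the 52.2% at all genes. None of the heat shock genes had a retained peak with H4K8ac in both stages. The chaperone gene Hsc70-3 had 6 motifs over 850 bp. Hsp70Bb and Hsp70Bbb had 5 each and Hsp70Aa had 4. The Hsp70 genes are near-identical copies, so reads could be shared between them, and a peak at 1 copy is uncertain. The peak of Hsp70Aa had no base between it and an H4K8ac peak, whereas that of its neighbour Hsp70Ab overlapped H4K8ac by 50 bp and was left out by the rule.

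Some lists had shares below the background, from few genes and with intervals that include it. Of 11 ribosomal protein genes with an interphase GAF peak none had a retained peak without H4K8ac (0%, up to 25.9%), and 6 had one with H4K8ac in both stages. Of 13 genes of Polycomb, trithorax and related chromatin factors 1 had one without H4K8ac, or 7.69% (1.37% to 33.3%), and 8 had one with H4K8ac in both stages. The 1 was trx, the trithorax methyltransferase gene, with a pair of peaks of 10 and 5 motifs past its TSS. Of 10 genes of cellularization and the cell cycle 2 had a peak without H4K8ac and 5 one with it. These were stg, the Cdc25 phosphatase gene that triggers mitosis, with 1 motif at its promoter, and E2f1. The peak of E2f1, with 5 motifs, lay 10817 bp past its nearest TSS and overlapped the annotated start of mir-998, which lies inside E2f1. It was the 1 peak at an annotated start among the microRNA genes, of which 9 of 32 had a peak nearby. These microRNA entries are short, with a median of 0.097 kb, so their annotated starts need not be promoters. Actin and tubulin genes counted 1 of 5, proteasome genes 1 of 4, odorant and gustatory receptor genes 1 of 3 and cuticle genes 0 of 2, numbers too small to set against the background. These lists share genes and peaks, the genes differ in length, and the shares were not tested against each other.

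**Figure D5:**
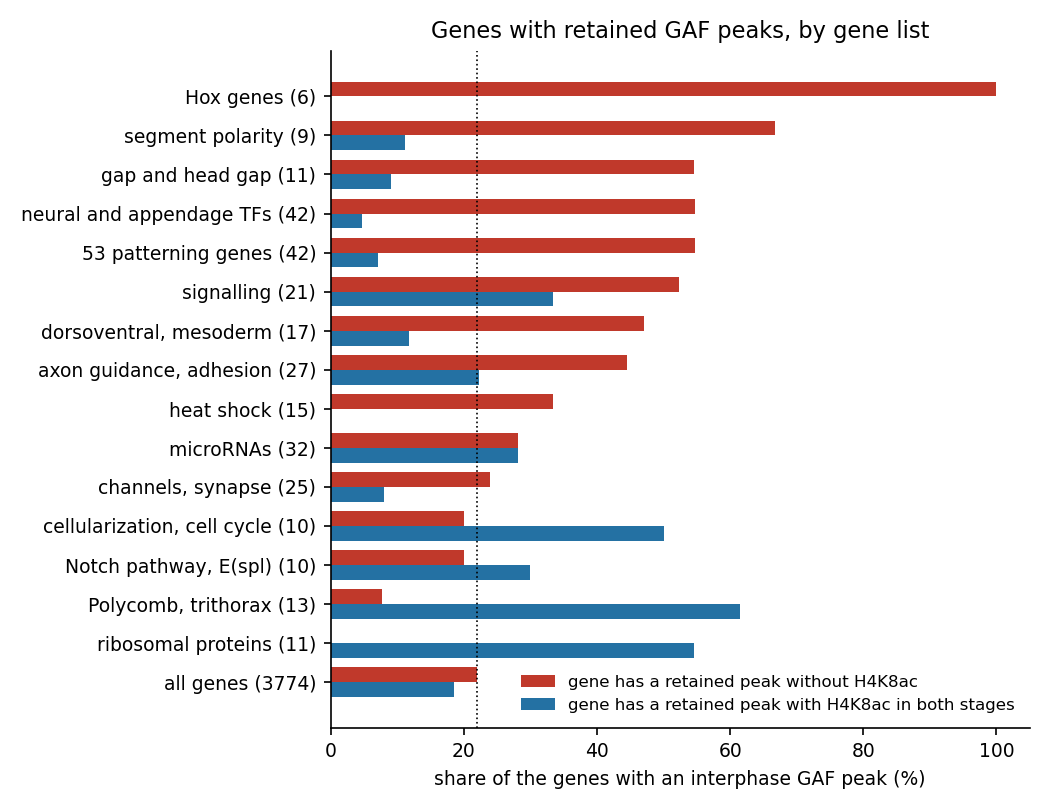
Bars give, for each gene list drawn, the share in % of the genes with an interphase GAF peak (number in brackets) that had a retained peak without H4K8ac (red) or with H4K8ac in both stages (blue) on the gene or within 1000 bp. The pair-rule, actin and tubulin, proteasome, cuticle, and odorant and gustatory receptor lists are not drawn. The dotted line is the 22.0% of all 3774 genes. The red bars of the Hox (6 of 6), patterning (23 of 42) and late transcription factor genes (23 of 42) are past the line, and those of the ribosomal protein (0 of 11) and Polycomb and trithorax genes (1 of 13) are short of it.

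The highest motif counts came from repeats. The longest peak, on 2L from 51 to 6201, held 124 motifs. Mitotic peaks covered 500 bp of it, and 90.1% of it was masked as repeats. The array on 2L from 23512601 to 23513801, shown above, held 77 motifs in 1200 bp and was masked over 95.4%. A peak on 2R from 870051 to 870601 held 53 in 550 bp. The next were genic: the peak of sbb on 2R from 18355151 to 18358051, 2900 bp long, held 25 motifs at the promoter, and the Mnt intron on X from 3676601 to 3678701 held 21. Next in length after the sbb peak was a promoter peak of CHES-1-like on X from 7704901 to 7707501, 2600 bp long with 17 motifs. Reads from repeats can map to many places, so binding at 1 place is uncertain, and the part of mapping in these counts was not tested. Masking did not mark all such sequence. The peaks on 2L from 1805751 to 1806201 and from 20281801 to 20282251 overlapped annotated transposable elements. Each was 450 bp long with 4 motifs, and only 14.2% of it was masked. Such peaks are not among those called masked here.

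The 34 peaks without a GAGAG were of another kind. Their median length was 100 bp, 26 of them were at most 250 bp long, and mitotic peaks covered 28 of them from end to end, against 1 of the 803 peaks with a motif. More than 50% of the sequence was masked as repeats in 28 of the 34 (82.4%) and in 32 of the 803 (3.99%). They were on 3L (13), X (10), 2R (8), Y (2) and 2L (1), and none was on 3R. Where a pair lay within 1000 bp, the starts were 300 or 350 bp apart in 7 of 8 pairs, and 29 of the 34 shared a run of 20 bases with another of them within 400 bp of sequence. For 27 that other was at least 10000 bp away or on another chromosome. Mitosis-only GAF peaks, which overlap no interphase peak, lay within 10000 bp of 14 of the 34 and of 7 of the 803. The 13 retained peaks with H4K8ac in both stages and no GAGAG were alike in this, with 9 covered from end to end and 7 within 10000 bp of a mitosis-only peak, but none was masked over more than 50%. The 3 longest were not repeats: a promoter peak of ITP on 2R from 24543101 to 24543851, 750 bp long, a promoter peak near Glyat on 2L from 8010501 to 8011001 and a peak in the region of sls on 3L from 2107351 to 2107851.

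Some peaks stood close to the limits of the rule. The nearest H4K8ac peak of either stage was a median of 4050 bp away (25% to 75% range 1050 to 12650 bp). It was within 1000 bp of 205 peaks, or 24.5%, and beyond 10000 bp for 248. In 19 peaks no base lay between the peak and H4K8ac, and these had 1 to 12 motifs with a median of 4. Just outside, 13 retained peaks overlapped H4K8ac by 50 bp, with 4 to 15 motifs and a median of 8. The farthest, near ben on X from 13994601 to 13995451, was 163300 bp from any H4K8ac peak. Mitotic peaks covered a median of 250 bp of each peak and at least 50 bp, the lowest value being that of a peak on X from 10102501 to 10102851, in the region of RhoU. In the interphase-only class the closest mitotic peak was 150 bp away.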

How the data were processed

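Reads had been trimmed with cutadapt 1.16 and mapped to dm6 with Bowtie2 per the submitters' processing notes. By the study's methods, the input-subtracted, depth-scaled enrichment in bins of 50 bp was averaged over replicates, and peaks were runs of bins above 100 (GAF) or 22 (H4K8ac). The methods state 1 maximum gap, but in the files neighbouring H4K8ac peaks were never closer than 2000 bp and GAF peaks never closer than 200 bp, as the list names also give. H4K8ac stretches less than 2000 bp apart were thus joined, and a GAF peak in such a gap counts as overlapping H4K8ac. The deposited lists used here hold positions only, pooled over 3 replicates for interphase GAF and 2 for each other list, so they give no depth per sample, and the number of replicates averaged differs between the GAF lists. The authors' list of retained GAF peaks was used in 1 alternative, and their list of H4K8ac peaks of both stages was not used here.

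Overlaps, distances and motifs were computed with Python 3.11.15 and NumPy 2.4.6, after a check on simulated data, and drawn with Matplotlib 3.10.9. The reference had the build of the files (dm6), with the Ensembl annotation. Positions are printed as deposited, and the length of a peak is end minus start. Promoters were the 100 bp before and after each TSS, and a gene counted with a peak on it or within 1000 bp. Masked bases are the lower-case letters of the reference. Gene lists numbered 20. All but 2 of their symbols were found in the annotation, some by older symbols. The promoter genes named were up to 3 per list, by the motif number of the promoter peak. Also named were the 5 peaks with the most motifs, the 3 longest, the genes with the most peaks and the peaks at the limits of the rule. Further Hox, heat shock and trx peaks, E2f1, the Ten-a sequence, the pair of repeat sequences and the shorter peaks without a motif were named after their values were seen, and so were the long GA runs and the X chromosome chosen for description. The members and lists were chosen with earlier results of these data known.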

Additional observations from a re-analysis of the deposited data

How the results depend on the processing

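The number of peaks, of genes, the promoter share and the motif number were recomputed under other settings. A coverage of at least 50% of each interphase peak by mitotic peaks left 306 peaks at 304 genes, with a promoter share of 52.3%. Taking the authors' own list of retained peaks, chosen after seeing the data, gave 1367 peaks without H4K8ac at 1266 genes. That list holds 2362 peaks, against the 1552 that an overlap of 1 bp gave with the lists used here. The lists used here thus did not reproduce it, and why was not tested. All 837 peaks overlapped a peak of the authors' list. Leaving out peaks more than 50% masked as repeats, also chosen afterwards, gave a promoter share of 52.3%. The promoter share was 55.8% with promoters of 500 bp to each side and 13.3% by the centre of the peak. The motif number was 10.1 with overlapping matches, 3.15 on the plus strand only and 4.65 in the central 400 bp, and 420 genes had a peak at the TSS. The difference in motifs per peak to the peaks with H4K8ac in both stages was -0.07 as reported. It turned to 0.152 without H4K8ac within 1000 bp and 0.0225 in peaks of at least 400 bp. With overlapping matches it was 0.621, and in the central 400 bp 1.01. Other settings made it more negative: -0.385 with the authors' list, -0.228 with at least 50% coverage and -0.125 without the masked peaks. On the plus strand only it was -0.000759. Its direction thus depended on the setting. The excess of the Hox, patterning and late transcription factor genes over all genes, and the deficit of ribosomal protein and Polycomb and trithorax genes, kept their direction in every setting run. Their size did not: the excess of the patterning genes was 32.8 percentage points as reported and 19.8 without H4K8ac within 1000 bp, and the deficit of the Polycomb and trithorax genes, -14.3 as reported, ran from -23.1 in peaks of at least 400 bp to -2.37 with the authors' list. The cause of these shifts was not tested. The ribosomal protein count was 0 of 11 as reported, and settings that only take peaks away cannot raise it. Its kept direction was thus fixed in advance in those settings. With at least 50% coverage both deficits were -8.06, and at the TSS both were -23.0, since neither list had a peak left. Replicates could not be left out, because the lists pool them. No paired analysis was possible because the lists hold no value per replicate. The unknown depth limits every statement on the lack of H4K8ac to the called peaks.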
